A study of Mus musculus with 19 samples.

Results

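Urogenital sinus epithelium (UGE) was compared with the urogenital sinus mesenchyme (UGM) that surrounds it, in arrays chosen by their sample titles: 6 of UGE and 5 of UGM, 11 of the 19 arrays of the series. The other 8 arrays read epidermis and dermis and enter the comparison through the filter on low values, the choice of the probe set that stands for a gene and a fit of all 4 tissues among the alternatives. All samples came from C57BL/6 embryos at embryonic day 16. The layers of the urogenital sinus were parted with trypsin, each array read RNA from tissue pooled over several embryos, and the labels give neither a genotype beyond the strain, nor a treatment, nor the sex of the embryos. A pool is a piece of tissue and not a sorted population, so UGM here is whatever lay around the epithelium, vessels and nerves included. The study set the layers against each other to find genes through which epithelium and mesenchyme of the primitive prostate stem cell niche could signal to each other.

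The urogenital sinus is the endodermal tube of the embryo that gives rise to bladder, urethra and, in males, the prostate. Its epithelium is bounded by a basement membrane and buds into the mesenchyme under androgen, and the mesenchyme is known to instruct that budding. Ligands made in one layer are commonly read by receptors in the other, and the layers keep apart through opposite programmes of adhesion, keratins and junctions on the epithelial side, and collagen matrix and migratory transcription factors on the other.

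RNA levels were read as the log2 of the deposited intensity of each probe set, a group of probes for 1 transcript, and a gene was read from its brightest tested probe set. Differences are UGE minus UGM on the log2 scale, ± SE, with n = 6 and 5, so a positive value is higher in UGE. A gene was called where limma gave a Benjamini-Hochberg adjusted p under 0.01 and a change of more than 2-fold. Of 17360 genes tested, 1172 were called higher in UGE (6.75%) and 1741 higher in UGM (10.0%), and the median difference of all genes was 0.02. The groups did not overlap in 1156 and 1717 of those genes. The choice of probe set mattered for some genes: of the 213 called genes named here, 30 were not called on the median over all their tested probe sets, Acta2 (-0.15), Gfra2 (-0.32), Hand2 (-0.56) and Ptch1 (-0.45) among them. Acvr1b (0.86), Fgf7 (-0.89), Fzd6 (0.97), Gli3 (-0.98), Grhl2 (0.92) and Hoxa9 (0.89) were others. So were Itgb3 (-0.64), Nr3c1 (0.79), Nrarp (0.74), Pitx1 (-0.73) and Wnt9a (-0.62). The rest are marked where they are named. In such pools fewer cells of a type and less RNA per cell cannot be told apart. Where values of 1 gene are given, UGE stands as lowest, median and highest of 6 arrays and UGM as replicates 1 to 5.

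UGE replicates 2 and 3 stood apart from the other UGE arrays. The 37 genes of interstitial matrix, the collagens and proteoglycans of connective tissue, had a median level of 9.77 and 9.96 there, 7.80 in UGE replicate 1, 6.69 to 6.90 in UGE replicates 4, 5 and 6, and 11.45 to 11.76 in UGM. Every difference below was therefore also computed with UGE replicates 1, 4, 5 and 6 as the only UGE arrays. UGE replicate 1 stayed in, though it lay above replicates 4, 5 and 6 for some mesenchymal genes, such as Col3a1 (10.85 against 8.56 to 9.04). Without those 2 arrays 1270 genes were called higher in UGE (7.32%) and 1861 higher in UGM (10.7%). The calls of 1086 and 1680 genes were kept, 86 and 61 were lost, 184 and 181 were gained, and 0 changed direction. UGM replicate 2 carried more epithelial transcript than the other UGM arrays: 20 genes lay at least 1 log2 unit above every other UGM array there, and 18 of these were called higher in UGE. The bacterial control transcript BioB lay at 9.16 to 9.47 in UGE replicates 1 to 4, at 8.45 and 8.37 in UGE replicates 5 and 6, and at 7.76 to 8.42 in UGM. The 3′ minus 5′ difference of the Actb control probe sets, a sign of RNA length, was 2.08 to 2.39 in UGE and 1.66 to 2.12 in UGM. Their part in the differences was not tested.

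**Figure D1:**
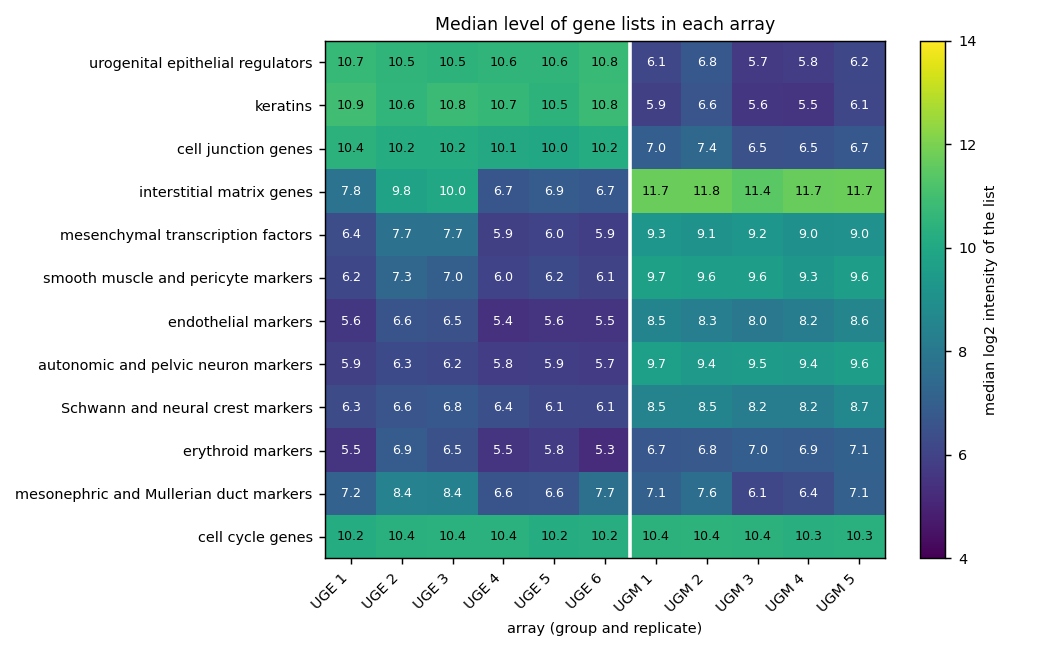
Median log2 intensity of the tested members of 12 gene lists (rows) in each of the 11 arrays (columns), printed in every cell and coloured from 4 to 14. Keratins lay at 10.46 to 10.94 in all UGE arrays and at 5.54 to 6.63 in UGM, while matrix genes in UGE replicates 2 and 3 (9.77 and 9.96) lay between the other UGE arrays (6.69 to 7.80) and UGM (11.45 to 11.76).

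The labels were checked on defining markers. Epcam, an adhesion molecule of epithelial cells, lay at 11.24, 11.52 and 11.88 in UGE and 6.99, 8.09, 6.03, 6.50 and 7.30 in UGM. Vim, the intermediate filament of mesenchymal cells, lay at 9.52, 8.35, 8.30 and 8.37 in UGE replicates 1, 4, 5 and 6, at 11.64 and 11.63 in replicates 2 and 3, and at 13.51, 13.40, 13.62, 13.52 and 13.74 in UGM. Both markers went with the labels in all 11 arrays, and for neither did the groups overlap (Epcam 4.58 ± 0.30, adjusted p = 1.42e-07; Vim -3.92 ± 0.64, adjusted p = 3.76e-04).

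Genes of epithelial identity were among the largest differences. Krt4, a keratin of stratified squamous epithelium, lay at 13.90, 14.05 and 14.28 in UGE and 6.65, 8.84, 6.17, 6.15 and 6.20 in UGM, a difference of 7.25 ± 0.41 (adjusted p = 3.89e-08) or 152-fold. The groups were far apart, and UGM replicate 2 was the highest UGM array. Clca1, a secreted protein of mucous epithelia, lay at 11.49, 11.69 and 12.53 in UGE and 4.36, 6.34, 3.93, 3.96 and 4.29 in UGM (7.23 ± 0.39, adjusted p = 2.25e-08), again with UGM replicate 2 highest. Trp63, the master transcription factor of stratified epithelia and of prostate basal cells, lay at 11.14, 11.87 and 12.01 in UGE and 5.90, 6.71, 4.52, 5.03 and 5.001 in UGM (6.25 ± 0.34, adjusted p = 2.72e-08). The lowest UGE arrays for it were replicates 2 and 3, and the groups did not overlap. Of the 12 largest differences in this direction the others were Krt15 (6.73 ± 0.51) and Krt6a (6.01 ± 0.15), keratins of stratified epithelium, Krt19 (5.95 ± 0.27), a keratin of simple epithelium, Clca3a2 (6.73 ± 0.34), a relative of Clca1, Ripk4 (6.50 ± 0.31), a kinase of keratinocyte differentiation, Cers3 (6.33 ± 0.24), a ceramide synthase, Cldn23 (6.23 ± 0.24), a claudin of tight junctions, Perp (6.00 ± 0.29), a desmosomal protein, and Ehf (5.92 ± 0.38), an epithelial ETS factor. Without UGE replicates 2 and 3 these 12 differences ran from 5.92 (Krt19) to 7.36 (Clca1). The 12 were picked among genes whose groups did not overlap, so their lack of overlap is not separate evidence.

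Transcription factors and other regulators of the urogenital epithelium were higher in UGE for 21 of 26 tested members, with a median difference of 4.12 against 0.02 over all genes, and 2 were higher in UGM. Foxa1, a pioneer factor of endodermal epithelium that opens chromatin for the androgen receptor in the prostate, lay at 12.97, 13.14 and 13.35 in UGE and 7.29, 8.65, 7.05, 6.69 and 6.99 in UGM (5.82 ± 0.28, adjusted p = 9.12e-09). Sox2, a progenitor factor, lay at 11.51, 11.78 and 12.09 in UGE and 6.59, 7.05, 6.43, 5.91 and 6.64 in UGM (5.26 ± 0.18, adjusted p = 6.15e-10). Hoxb13, a homeobox gene of the prostate and hindgut, lay at 9.73, 10.29 and 10.96 in UGE and 5.05, 5.72, 5.40, 5.20 and 5.62 in UGM (4.94 ± 0.22, adjusted p = 4.04e-09). For these 3 factors every UGE array was above every UGM array. Esrp1, which drives the epithelial form of splicing (5.79 ± 0.29), and Grhl2, an activator of junction genes (4.57 ± 0.13, or 0.92 as the median over its probe sets), were higher in UGE too. The 2 members that were higher in UGM were Gata2, a GATA factor also made by neurons and vessels (-1.15 ± 0.17, adjusted p = 1.73e-04), and Pitx1, a hindlimb and pelvic homeobox gene (-1.25 ± 0.18, adjusted p = 1.67e-04). Gata3, a GATA factor of urothelium and of the mesonephric duct, was higher in UGE (2.32 ± 0.16).

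Keratins of simple, basal and stratified epithelium were higher in the same tissue. Of 17 tested, 11 were higher in UGE and 0 in UGM (median 4.31). Krt5 and Krt14, the pair of basal cells, differed by 5.60 ± 0.32 and 5.49 ± 0.19, and Krt8 and Krt18, the pair of simple and luminal cells, by 4.31 ± 0.24 and 3.56 ± 0.16. Krt8 lay at 13.77, 13.96 and 14.07 in UGE and 9.53, 10.65, 9.22, 8.98 and 9.81 in UGM, with UGM replicate 2 the highest UGM array. Urothelial genes were higher in UGE for 9 of 11 tested (median 3.25) and in UGM for 0. Among the uroplakins, the membrane plaque proteins of the bladder lining, Upk1b differed by 5.51 ± 0.21, Upk3a by 5.32 ± 0.17, Upk3b by 3.25 ± 0.27 and Upk2 by 2.13 ± 0.10. Cell junction genes were higher in UGE for 24 of 27 tested (median 3.54), with 0 higher in UGM: Cdh1, the cadherin of adherens junctions (5.59 ± 0.27), Dsp, the desmosomal plaque protein (5.21 ± 0.30), Epcam (4.58 ± 0.30) and Ocln, a tight junction protein (3.85 ± 0.18). Leaving out UGE replicates 2 and 3 changed none of the counts of these 4 lists.

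**Figure D2:**
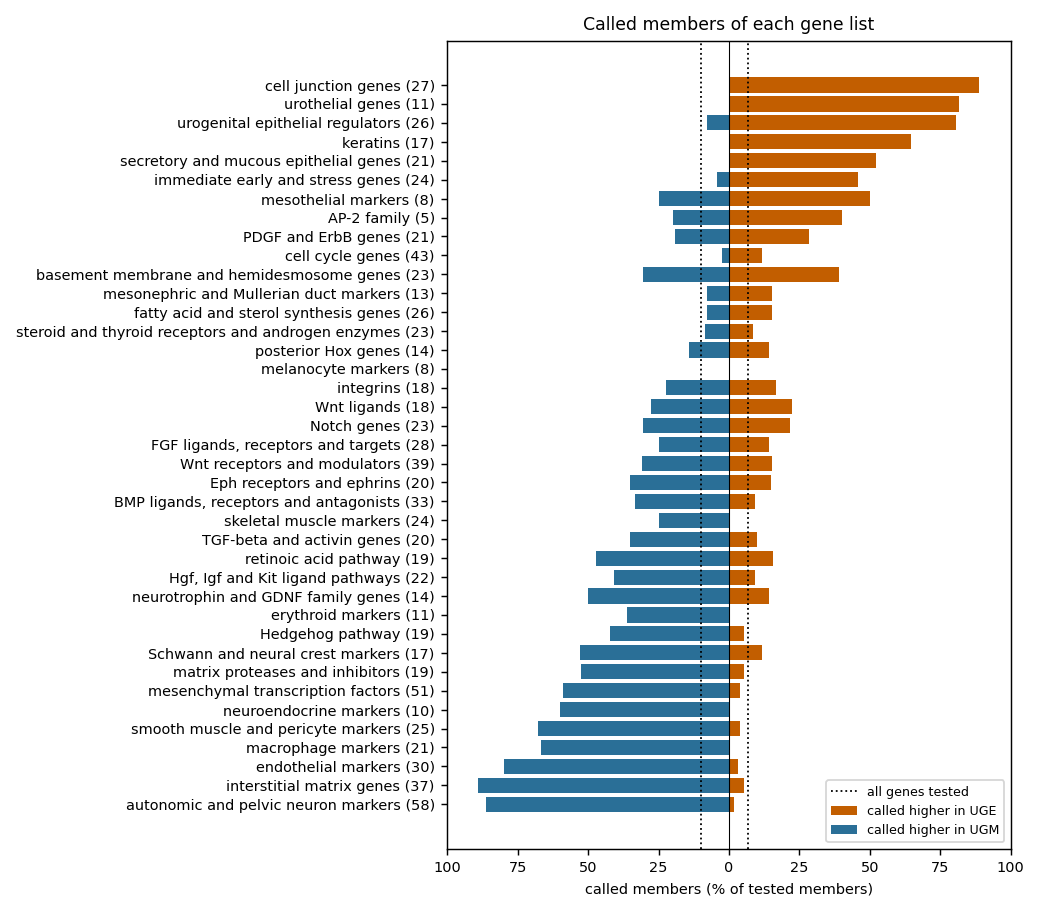
Share of the tested members of each of 39 gene lists (number tested in brackets) that were called higher in UGE (orange, to the right) or higher in UGM (blue, to the left), in percent of tested members. Dotted lines mark the shares over all genes tested, 6.75% and 10.0%, and the lists are ordered by the first share minus the second, from junction genes at the top to neuron markers at the bottom.

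Promoters of some of these genes were read for the E-box letters CACCTG, a form that the epithelial repressors of the Zeb and Snail families are known to bind. On the opposite strand the same site reads CAGGTG. The windows are the 250 bases before the start of a RefSeq transcript on build GRCm38.p6, and 13800 of the tested genes have at least 1 window. The letters stood on either strand in 17.2% of all 17380 windows, 24.9% of the 1251 windows of genes called higher in UGE, 15.5% of the 1784 windows of genes called higher in UGM and 16.7% of the windows of genes not called. They stood in 11 of 20 windows of junction genes (55.0%), 6 of 10 of keratins (60.0%), 5 of 20 of the epithelial regulators (25%), 15 of 69 of neuron markers (21.7%) and 1 of 29 of matrix genes (3.45%). By contrast the palindrome GCCNNNGGC, read by AP-2 factors, stood in 19.3% and 19.4% of the windows of genes called higher in UGE and in UGM (18.6% of all), and the forkhead letters TGTTTAC in 3.36% and 1.79% (2.56% of all). GC content was 58.6%, 59.1% and 58.2% in these 3 sets. These are counts of letters, with no test, and a match is not a binding site. The list shares rest on windows of 15 junction genes, 9 keratins, 14 epithelial regulators, 45 neuron markers and 23 matrix genes, not on whole lists. A gene with several windows was counted once per window, and windows of 1 gene can overlap, as those of Ocln do. Matches of different motifs can share letters, and each motif was counted on its own, on both strands. Below are the windows of an adhesion gene, a junction gene, a luminal keratin and the endodermal pioneer factor, each 5′ to 3′ on the strand of the gene with E-box letters in capitals. For Epcam (chr17:87635729-87635978, plus strand) they start 187 and 19 bases before the transcript start, for the first of 2 windows of Ocln (chr13:100552499-100552748, minus strand) 213 and 68 before it, for Krt8 (chr15:102004343-102004592, minus strand) 111 before it, and for Foxa1 (chr12:57546112-57546361, minus strand) 23 before it. The other window of Ocln holds none.
Epcam: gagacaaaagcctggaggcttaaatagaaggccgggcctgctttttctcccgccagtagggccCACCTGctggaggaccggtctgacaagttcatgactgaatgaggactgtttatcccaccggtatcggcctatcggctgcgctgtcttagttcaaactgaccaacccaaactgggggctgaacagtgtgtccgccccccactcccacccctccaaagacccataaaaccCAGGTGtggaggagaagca
Ocln: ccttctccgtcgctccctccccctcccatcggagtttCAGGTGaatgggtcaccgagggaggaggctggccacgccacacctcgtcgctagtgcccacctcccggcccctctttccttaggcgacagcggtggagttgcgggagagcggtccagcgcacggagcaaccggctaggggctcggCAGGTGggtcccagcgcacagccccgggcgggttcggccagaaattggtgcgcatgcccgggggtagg
Krt8: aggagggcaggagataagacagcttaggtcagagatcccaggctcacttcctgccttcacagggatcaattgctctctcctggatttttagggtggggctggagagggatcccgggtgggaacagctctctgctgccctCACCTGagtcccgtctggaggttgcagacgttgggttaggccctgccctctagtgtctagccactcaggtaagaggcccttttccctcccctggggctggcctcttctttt
Foxa1: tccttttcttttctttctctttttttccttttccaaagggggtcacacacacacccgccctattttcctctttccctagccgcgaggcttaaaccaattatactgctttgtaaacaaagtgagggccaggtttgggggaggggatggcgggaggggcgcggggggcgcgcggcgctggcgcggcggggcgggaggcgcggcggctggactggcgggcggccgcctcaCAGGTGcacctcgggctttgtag

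Both layers contribute to the basement membrane, and its genes were split between them: 9 of 23 tested were higher in UGE and 7 in UGM (median 0.37). On the epithelial side were the parts that anchor basal cells. Col17a1, the transmembrane collagen of hemidesmosomes, lay at 9.27, 9.64 and 10.05 in UGE and 4.11, 4.69, 4.31, 4.44 and 4.63 in UGM (5.19 ± 0.16, adjusted p = 2.43e-10). Lamb3 (4.18 ± 0.17) and Lama3 (3.97 ± 0.20), chains of the laminin that hemidesmosomes hold, and Itgb4 (2.94 ± 0.17), the integrin chain that binds it, were higher in UGE. On the mesenchymal side were Nid1, a linker of laminin and collagen IV (-5.12 ± 0.64), Lama4, a laminin chain of vessels (-3.99 ± 0.45), and Lama2, a laminin chain of muscle and nerve (-2.10 ± 0.12). Nid1 lay at 7.08, 5.04, 5.38 and 5.28 in UGE replicates 1, 4, 5 and 6, 8.48 and 8.52 in replicates 2 and 3 and 11.996, 11.83, 11.62, 11.78 and 11.53 in UGM, so that UGE replicates 2 and 3 were the highest UGE arrays without reaching UGM. Integrins were called in both directions too. Besides Itgb4, Itga3 (1.57 ± 0.18) and Itgb6 (1.91 ± 0.23), a laminin receptor chain and an activator of latent TGF-beta, were higher in UGE, and Itga4 (-3.69 ± 0.18), Itga1 (-2.98 ± 0.17), Itga8 (-1.79 ± 0.11) and Itgb3 (-1.31 ± 0.16) were higher in UGM, out of 18 tested (median -0.43). Itga8 lay at 9.82 to 10.26 in UGE and 11.73 to 12.01 in UGM.

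Secretory and mucous genes were higher in UGE for 11 of 21 tested and in UGM for 0 (median 1.78). Among them were proteases of epithelial surfaces and an inhibitor: Prss8, a membrane-anchored serine protease (4.64 ± 0.25), Tmprss2, a transmembrane protease known as an androgen target in the prostate (5.16 ± 0.15), and Spint1, an inhibitor of such proteases (5.28 ± 0.18). Tmprss2 lay at 11.26, 11.32 and 11.56 in UGE and 6.21, 6.78, 5.82, 6.01 and 6.19 in UGM. Of the 8 mesothelial markers tested (median 1.28), 4 were higher in UGE: Krt19, Upk3b, Msln (4.75 ± 0.14), a surface glycoprotein, and Bnc1 (2.55 ± 0.25), a zinc finger protein of basal keratinocytes as well. Krt19 and Upk3b also belong to other lists here. Wt1, a factor of mesothelium and of urogenital mesenchyme (-3.41 ± 0.53), and Gpm6a (-1.71 ± 0.22) were higher in UGM.

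Mesenchymal transcription factors were higher in UGM for 30 of 51 tested (median -1.84). Tcf21, a factor of visceral mesenchyme, lay at 9.40, 5.41, 5.46 and 5.50 in UGE replicates 1, 4, 5 and 6, 9.84 and 9.92 in replicates 2 and 3 and 12.83, 12.88, 12.86, 12.82 and 12.99 in UGM (-5.29 ± 0.92, adjusted p = 6.49e-04). UGE replicates 1, 2 and 3 were thus between the other UGE arrays and UGM. Hand2, which also marks sympathetic neurons, lay at 6.17, 4.43, 4.98 and 4.90 in UGE replicates 1, 4, 5 and 6, 8.59 and 8.55 in replicates 2 and 3 and 11.94, 11.69, 11.53, 11.35 and 11.85 in UGM (-5.40 ± 0.74, adjusted p = 9.53e-05). Eya1, a transcriptional coactivator of kidney and genital mesenchyme, lay at 5.20, 5.48 and 5.70 in UGE and 10.40, 10.06, 10.12, 10.25 and 9.85 in UGM (-4.67 ± 0.11, adjusted p = 6.76e-11), and UGE replicates 2 and 3 did not stand out. Prrx1, a homeobox gene of limb and body wall mesenchyme (-4.75 ± 0.53), was higher in UGM as well. So were the repressors of epithelial genes Zeb1 (-4.62 ± 0.46), Zeb2 (-3.78 ± 0.35) and Twist1 (-4.06 ± 0.43). Zeb1 lay at 7.13, 5.82, 5.84 and 5.74 in UGE replicates 1, 4, 5 and 6, 8.05 and 8.07 in replicates 2 and 3 and 11.67, 11.74, 11.17, 11.26 and 11.12 in UGM. The groups did not overlap for any of these 7 factors. Against the list's name, Msx2, a BMP-responsive homeobox gene (3.07 ± 0.24), and Eya2 (1.0004 ± 0.19, barely over the fold asked for) were higher in UGE, and the call of Eya2 ended without UGE replicate 1 (0.98), UGE replicate 3 (0.93), UGE replicate 4 (0.91) or UGM replicate 1 (0.92), as well as without UGE replicates 2 and 3 (0.96). Isl1, a LIM-homeobox gene of genital mesenchyme and of neurons, differed by -0.99 ± 0.20, just short of the fold asked for.

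Matrix genes were higher in UGM for 33 of 37 tested (median -2.79, or -3.38 without UGE replicates 2 and 3). Col1a1, a chain of collagen I, lay at 7.19, 6.10, 5.73 and 5.87 in UGE replicates 1, 4, 5 and 6, 10.12 and 10.12 in replicates 2 and 3 and 11.50, 11.46, 11.15, 11.22 and 11.44 in UGM. For Col1a1 UGE replicates 2 and 3 were nearer to UGM than to the other UGE arrays, and the difference moved from -3.83 ± 0.82 (adjusted p = 0.00276) to -5.13 ± 0.25 without them. Col3a1 (-4.21 ± 0.68, -5.19 without them) and Col6a1 (-4.92 ± 0.83 and -6.21), further fibrillar and microfibrillar collagens, moved likewise. Other members varied less: Ogn, a small leucine-rich proteoglycan, lay at 3.63, 4.20 and 5.31 in UGE and 11.24, 11.31, 10.59, 10.83 and 10.27 in UGM (-6.55 ± 0.29, adjusted p = 4.45e-09), with -6.65 without those arrays. Postn, a matricellular protein, differed by -4.78 ± 0.24 (-4.79 without them), and Lox, the enzyme that cross-links collagen, by -5.30 ± 0.28 (-5.57). Dcn, decorin, lay at 11.06, 11.64 and 12.15 in UGE and 14.06, 13.82, 13.88, 13.83 and 13.87 in UGM (-2.30 ± 0.21), and here UGE replicates 2 and 3 were the lowest arrays (11.06 and 11.06). Fmod, fibromodulin (1.70 ± 0.23), and Ecm1 (1.48 ± 0.17) were higher in UGE. Among proteases of the matrix and their inhibitors, 10 of 19 were higher in UGM (median -1.28), among them Mmp2, a gelatinase (-3.17 ± 0.40), and 1 in UGE, Mmp7, the matrilysin of glandular epithelium (2.20 ± 0.21).

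**Figure D3:**
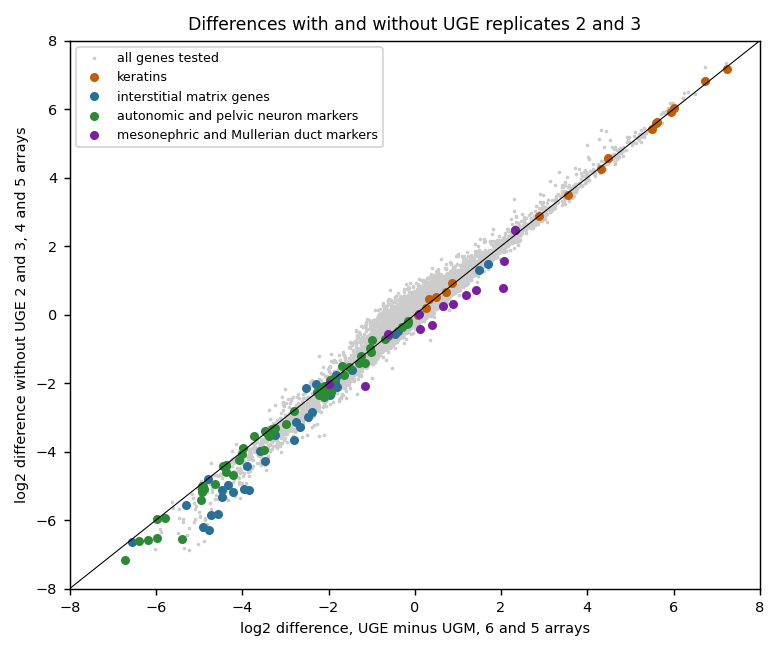
Log2 difference between UGE and UGM of every tested gene with all 11 arrays (horizontal) and without UGE replicates 2 and 3 (vertical), the line marking equal values. Keratins and most neuron markers lie close to the line, most matrix genes lie below it at the left (median -2.79 against -3.38), and several duct markers lie below it at the right.

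Hedgehog genes followed a split of ligand and response. Shh, the ligand made by the sinus epithelium, lay at 13.19, 13.46 and 13.71 in UGE and 8.47, 9.80, 7.84, 7.72 and 8.65 in UGM (4.92 ± 0.31, adjusted p = 8.77e-08), and UGM replicate 2 was again the highest UGM array. Ptch1, its receptor and also a target gene, lay at 10.64, 10.74 and 10.96 in UGE and 12.36, 12.17, 12.15, 12.19 and 12.06 in UGM (-1.42 ± 0.09, adjusted p = 6.87e-08). Gli1, the most direct target of the pathway, lay at 6.34, 5.76, 6.14 and 5.92 in UGE replicates 1, 4, 5 and 6, 7.12 and 7.15 in replicates 2 and 3 and 9.02, 8.80, 9.25, 9.13 and 9.36 in UGM (-2.71 ± 0.25, adjusted p = 3.61e-06). For all 3 genes the groups did not overlap. Of 19 tested members 1 was higher in UGE and 8 in UGM (median -0.26), among the latter Gli2 (-4.82 ± 0.81), the main activator, Gli3 (-1.07 ± 0.11, or -0.99 and not called without UGE replicates 5 and 6), the main repressor, Hhip (-3.77 ± 0.17), a decoy receptor, Gas1 (-4.38 ± 0.61), a coreceptor, and Foxf2 (-3.43 ± 0.22), a mesenchymal target. Gli2 lay at 6.01, 5.13, 5.08 and 5.08 in UGE replicates 1, 4, 5 and 6 and 9.34 and 9.12 in replicates 2 and 3, against 11.33, 11.21, 11.51, 11.63 and 11.55 in UGM, while Hhip lay at 5.13 to 5.78 in all UGE arrays. Foxf1, a further mesenchymal target, lay at 6.20 to 6.49 in UGE and 6.43 to 6.85 in UGM (-0.26 ± 0.09, not called). These levels were near the array medians (6.26 to 6.35), so equal levels and a signal too weak to read cannot be told apart. Of its 2 tested probe sets, the 1 not used here was called higher in UGM.

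Wnt ligands came from both layers, 4 of 18 tested being higher in UGE and 5 in UGM (median 0.13). Wnt4 lay at 12.92, 13.12 and 13.22 in UGE and 8.27, 8.76, 8.44, 8.47 and 9.08 in UGM (4.50 ± 0.13, adjusted p = 2.30e-10). Wnt7b (3.47 ± 0.15), Wnt10a (3.13 ± 0.23) and Wnt6 (2.11 ± 0.22) were higher in UGE too. Wnt5a, which acts mostly without beta-catenin, lay at 7.01, 8.16 and 8.70 in UGE and 10.78, 10.53, 10.77, 10.76 and 10.55 in UGM (-2.63 ± 0.25, adjusted p = 3.43e-06), and Wnt2 (-3.36 ± 0.30), Wnt5b (-1.81 ± 0.27), Wnt11 (-1.78 ± 0.20) and Wnt9a (-1.27 ± 0.17) were also higher in UGM. Wnt4 and Wnt5a did not overlap between the groups. Wnt7a was not called: it lay at 7.36, 7.15, 6.96 and 8.05 in UGE replicates 1, 4, 5 and 6, 11.13 and 11.31 in replicates 2 and 3 and 6.45, 7.02, 5.98, 6.37 and 7.21 in UGM (2.05 ± 0.81, 0.77 without those arrays). Receptors and modulators were higher in UGE for 6 of 39 tested and in UGM for 12 (median -0.16). The R-spondin receptors Lgr4 (1.81 ± 0.15) and Lgr5 (2.16 ± 0.11) and the ligase Rnf43 (3.51 ± 0.15), which takes Frizzled receptors off the surface, were higher in UGE, as was Fzd6 (3.69 ± 0.10), a Frizzled of planar polarity. Rspo3, the ligand of these Lgr receptors, lay at 5.73, 4.89, 5.10 and 5.10 in UGE replicates 1, 4, 5 and 6, 7.21 and 6.90 in replicates 2 and 3 and 11.23, 11.23, 11.06, 11.22 and 11.20 in UGM (-5.37 ± 0.40, adjusted p = 4.24e-07). Lgr4 lay at 11.16, 11.66 and 11.99 in UGE and 9.75, 9.80, 9.70, 9.84 and 9.74 in UGM, with no overlap. Dkk2 (-4.59 ± 0.47), a secreted antagonist, and Ror1 (-4.34 ± 0.51, or -0.26 as the median over its probe sets), a Wnt5a receptor, were higher in UGM. Axin2, a target of beta-catenin, lay at 8.87 to 10.22 in UGE and 9.37 to 9.73 in UGM (-0.16 ± 0.23, not called).

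FGF receptors were divided between the layers, and 4 of 28 genes of this pathway were higher in UGE and 7 in UGM (median -0.00). Fgfr2, the receptor of epithelial FGF signals, lay at 12.15, 12.32 and 12.51 in UGE and 10.37, 10.27, 10.09, 10.35 and 10.07 in UGM (2.08 ± 0.09, adjusted p = 4.44e-09), and Fgfr3 differed by 4.02 ± 0.13. Fgf1 (2.54 ± 0.22) and Fgfbp1 (3.96 ± 0.19), which frees FGF from matrix, were the other 2 higher in UGE. Fgfr1 lay at 7.48, 7.91 and 8.57 in UGE and 10.17, 10.13, 10.10, 9.89 and 10.37 in UGM (-2.14 ± 0.19, adjusted p = 2.41e-06). Fgf7, a mesenchymal ligand of epithelial Fgfr2, lay at 4.18 to 4.77 in UGE and 6.22, 6.88, 5.52, 5.55 and 5.66 in UGM (-1.52 ± 0.23, adjusted p = 2.12e-04). For Fgfr1 and for Fgf7 every UGM array was above every UGE array. Fgf10, the other such ligand, lay at 4.89 to 5.20 in UGE and 4.81 to 5.09 in UGM (0.10 ± 0.09, not called). These levels were below the array medians (6.26 to 6.35), so equal levels and a signal too weak to read cannot be told apart. Etv5, a target of FGF receptors, lay at 6.17, 5.26, 5.72 and 7.33 in UGE replicates 1, 4, 5 and 6, 8.71 and 8.71 in replicates 2 and 3 and 7.61 to 8.26 in UGM, and was called only without those replicates (-0.99 ± 0.60 and -1.85 ± 0.34).

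Several BMP and TGF-beta ligands were higher in UGM. Bmp4, a mesenchymal restrainer of prostate budding, lay at 8.93, 8.26, 8.27 and 8.01 in UGE replicates 1, 4, 5 and 6, 9.59 and 9.92 in replicates 2 and 3 and 12.29, 12.23, 12.72, 12.64 and 12.49 in UGM (-3.64 ± 0.32, adjusted p = 2.13e-06). Gdf10 lay at 6.85, 5.05, 5.01 and 4.79 in UGE replicates 1, 4, 5 and 6, 8.94 and 9.01 in replicates 2 and 3 and 11.98, 11.76, 11.94, 11.82 and 12.28 in UGM (-5.35 ± 0.78, adjusted p = 1.60e-04). Both were highest in UGE in replicates 2 and 3. Of 33 BMP pathway genes 11 were higher in UGM and 3 in UGE (median -0.66), the latter being Id1, a BMP target (1.51 ± 0.09), and the receptors Bmpr1b (1.30 ± 0.17) and Acvr2b (1.21 ± 0.13). Those 3 are 9.09% of the list, against 6.75% of all genes. On the median over their probe sets Bmpr1b (0.58) and Acvr2b (0.29) were not called. Bmp7 (-0.61 ± 0.09) and Id2 (-0.66 ± 0.10) were not called. Of 20 TGF-beta and activin genes 7 were higher in UGM and 2 in UGE (median -0.86). Tgfb2 lay at 8.89, 9.01 and 9.40 in UGE and 11.10, 11.06, 11.33, 11.28 and 11.16 in UGM (-2.08 ± 0.12, adjusted p = 3.44e-08). Tgfb3 (-3.55 ± 0.23) and Inhba (-3.49 ± 0.21), the subunit of activin A, were higher in UGM, and Acvr1b, an activin receptor (1.66 ± 0.13), and Inha, the inhibin subunit (1.28 ± 0.10), in UGE. Tgfbi, a TGF-beta induced matrix protein, lay at 8.48, 6.78, 6.95 and 7.28 in UGE replicates 1, 4, 5 and 6 and 11.20 and 11.23 in replicates 2 and 3, against 12.45 to 12.62 in UGM (-3.91 ± 0.82, -5.19 without them).

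**Figure D4:**
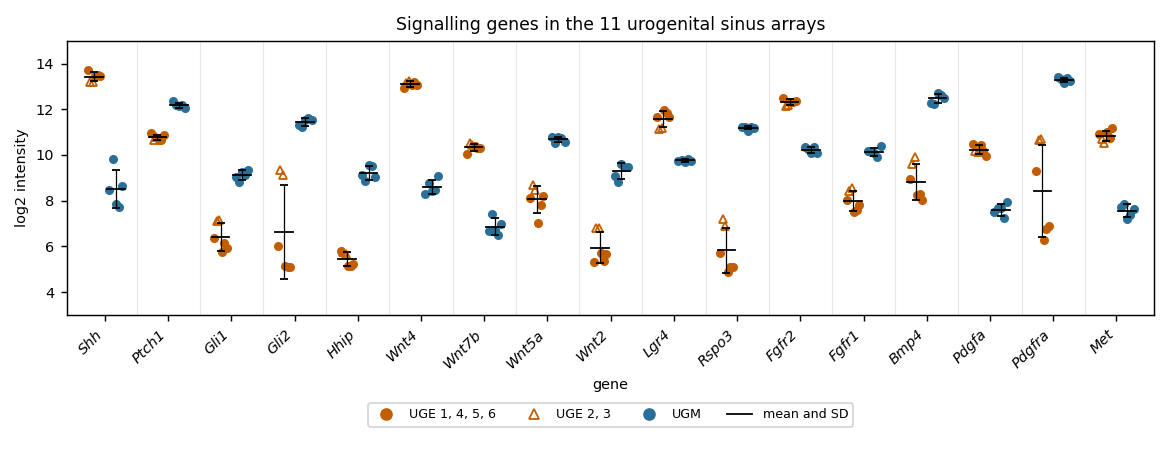
Log2 intensity of 17 signalling genes in each array, UGE replicates 1, 4, 5 and 6 as orange discs, UGE replicates 2 and 3 as open triangles and UGM as blue discs, with mean and SD of each group. Shh, Wnt4, Wnt7b, Lgr4, Fgfr2, Pdgfa and Met lie higher in UGE, the others higher in UGM, and the triangles of Gli2 and Pdgfra lie between the groups.

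Notch genes were called in both directions, 5 of 23 higher in UGE and 7 in UGM (median 0.06). Notch1 lay at 11.31, 11.71 and 12.02 in UGE and 10.11, 10.03, 9.58, 9.71 and 9.87 in UGM (1.84 ± 0.15, adjusted p = 9.97e-07). Its ligand Jag2 (1.71 ± 0.20), its targets Hes1 (2.17 ± 0.17) and Nrarp (1.22 ± 0.14) and the receptor Notch3 (1.01 ± 0.13) were higher in UGE, but the call of Notch3 ended without UGE replicate 2 (0.94), UGE replicate 3 (0.95) or UGM replicate 2 (0.98). Notch4, the receptor of endothelium (-2.24 ± 0.33, or -0.05 as the median over its probe sets), and Hey2, an arterial target (-2.84 ± 0.13), were higher in UGM. Jag1 lay at 9.09 to 9.85 in UGE and 9.24 to 9.71 in UGM (0.06 ± 0.14, not called). Of 20 Eph receptors and ephrins 3 were higher in UGE, Epha1 (2.67 ± 0.16, or 0.54 as the median over its probe sets), Efna1 (1.79 ± 0.16) and Ephb6 (1.19 ± 0.15), and 7 in UGM (median -0.49). Epha3 (-4.14 ± 0.41) and Epha5 (-4.33 ± 0.29), guidance receptors, were among the 7. Epha3 lay at 9.16 in UGE replicate 1 and at most 7.27 in the other UGE arrays, against 11.05 to 11.54 in UGM.

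The PDGF ligand Pdgfa and its receptor lay on opposite sides. Pdgfa lay at 9.95, 10.18 and 10.48 in UGE and 7.51, 7.67, 7.69, 7.23 and 7.92 in UGM (2.62 ± 0.13, adjusted p = 1.38e-08). Its receptor Pdgfra lay at 9.31, 6.28, 6.76 and 6.89 in UGE replicates 1, 4, 5 and 6, 10.65 and 10.68 in replicates 2 and 3 and 13.39, 13.31, 13.17, 13.36 and 13.22 in UGM (-4.86 ± 0.80, adjusted p = 4.12e-04). Pdgfra thus had UGE replicates 1, 2 and 3 between the groups, as Tcf21 had. Pdgfrb, the receptor of pericytes, differed by -5.04 ± 1.10 (-6.69 without UGE replicates 2 and 3), and Pdgfd (-2.32 ± 0.22), another PDGF ligand, and Pdgfrl (-2.67 ± 0.37) were the other members higher in UGM. Of the 21 PDGF and ErbB genes (median 0.02) 6 were higher in UGE, among them Erbb3, a neuregulin receptor (2.67 ± 0.12), and Tgfa, an EGF receptor ligand (2.08 ± 0.12, or 0.28 as the median over its probe sets). Egfr itself lay at 7.08 to 8.57 in UGE and 7.43 to 8.84 in UGM (-0.53 ± 0.30, not called). Met, the receptor of hepatocyte growth factor, lay at 10.51, 10.83 and 11.16 in UGE and 7.73, 7.87, 7.21, 7.35 and 7.63 in UGM (3.28 ± 0.15, adjusted p = 4.35e-09), and Mst1, a ligand of the related receptor Ron, differed by 1.10 ± 0.09. Hgf, the ligand of Met, lay at 5.21 to 5.65 in UGE and 5.22 to 5.60 in UGM (0.02 ± 0.10, not called). As for Fgf10, these levels were below the array medians (6.26 to 6.35), and a weak signal cannot be told from equal levels. Of 22 genes of the Hgf, Igf and Kit ligand pathways 9 were higher in UGM and 2, Met and Mst1, in UGE (median -0.55). Igf1 lay at 7.36, 8.22 and 9.36 in UGE and 13.21, 13.01, 12.85, 12.99 and 12.32 in UGM (-4.72 ± 0.32, adjusted p = 1.79e-07), with UGE replicates 2 and 3 lowest (7.36 and 7.40), and Cxcl12, a stromal chemokine, differed by -4.24 ± 0.31.

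Retinoic acid genes were higher in UGM for 9 of 19 tested and in UGE for 3 (median -0.42). Aldh1a2, which makes retinoic acid in mesenchyme, lay at 9.52, 9.77 and 10.20 in UGE and 12.58, 12.57, 12.51, 12.63 and 12.48 in UGM (-2.74 ± 0.12, adjusted p = 4.02e-09). Rdh10, which makes its precursor (-2.50 ± 0.21), and Crabp1, a binding protein (-4.32 ± 0.67), were higher there too. Dhrs3, which turns retinal back to retinol, lay at 11.69, 11.86 and 12.01 in UGE and 9.41, 9.56, 9.86, 9.76 and 10.21 in UGM (2.09 ± 0.13, adjusted p = 7.64e-08), and Aldh1a1 (1.94 ± 0.24) and the receptor Rxra (1.402 ± 0.11, or 0.56 as the median over its probe sets) were the others higher in UGE. Among 23 steroid and thyroid receptors and androgen enzymes 2 were higher in each layer (median -0.05). That is 8.70% of the list each way, against 6.75% higher in UGE and 10.0% higher in UGM over all genes. Thra, a thyroid hormone receptor (-1.82 ± 0.18, or -0.52 as the median over its probe sets), and Hsd11b2, which inactivates glucocorticoids (-2.77 ± 0.46), were higher in UGM, and Hsd17b2, which inactivates androgens and estrogens, in UGE (1.64 ± 0.17). Nr3c1, the glucocorticoid receptor, lay at 10.22, 10.24, 10.30 and 10.50 in UGE replicates 1, 4, 5 and 6, 8.88 and 9.10 in replicates 2 and 3 and 8.75, 8.72, 8.73, 8.80 and 8.43 in UGM (1.18 ± 0.28, adjusted p = 0.00584). Its call ended when any array other than UGE replicate 2 or 3 was left out (adjusted p of 0.0124 to 0.0166), which left 1 member higher in UGE, and held without both of those (1.63 ± 0.10). Esr1 (-0.73 ± 0.15) and Pgr (-0.07 ± 0.17), receptors of estrogen and progesterone, were not called.

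Of 14 posterior Hox genes, which set position along the hind body, 10 were not called (median -0.31). The shares called were 14.3% in each direction, against 6.75% higher in UGE and 10.0% higher in UGM over all genes. Besides Hoxb13, Hoxa9 was higher in UGE (1.36 ± 0.16, adjusted p = 2.43e-05), and Hoxc10 (-4.82 ± 0.19, adjusted p = 1.97e-09) and Hoxd10 (-1.41 ± 0.22, adjusted p = 2.95e-04) in UGM. Hoxc10 lay at 4.40 to 5.51 in all UGE arrays, replicates 2 and 3 included, and at 9.75, 9.57, 9.60, 9.73 and 9.91 in UGM. Hoxd13 lay at 11.83 to 12.19 in UGE and 12.33 to 12.91 in UGM (-0.68 ± 0.11, not called). Of the 5 AP-2 genes, factors of ectodermal and neural crest cells (median 0.16), Tfap2c (3.50 ± 0.17) and Tfap2a (1.72 ± 0.12) were higher in UGE and Tfap2b (-2.61 ± 0.17) in UGM. Tfap2b lay at 6.22, 6.33 and 6.92 in UGE and 9.38, 9.37, 8.70, 8.90 and 9.20 in UGM, with no overlap.

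Neuron genes were among the largest differences toward UGM. Of 58 markers of autonomic and pelvic neurons tested, 50 were higher in UGM (median -3.32) and 1 in UGE, Gata3, which the epithelium also makes. Their summed level, as log2 of the sum of intensities, was 13.66 to 13.98 in UGE and 16.36 to 16.64 in UGM. Nefl, a neurofilament subunit, lay at 4.94, 6.20 and 7.10 in UGE and 13.19, 12.97, 12.69, 12.63 and 12.79 in UGM (-6.72 ± 0.36, adjusted p = 2.38e-08), or 105-fold. Snap25, a part of the vesicle fusion machinery, lay at 3.49, 3.64 and 4.28 in UGE and 9.93, 9.83, 9.66, 9.50 and 9.62 in UGM (-5.98 ± 0.14, adjusted p = 5.27e-11). In contrast to matrix genes, UGE replicates 2 and 3 did not stand out for Snap25 (3.63 and 3.80). Of the 12 largest differences in this direction Nefm (-6.40 ± 0.20), Prph (-6.20 ± 0.30), Stmn3 (-5.97 ± 0.37) and Tubb3 (-5.79 ± 0.24), cytoskeletal proteins of neurons, and Fabp7 (-5.62 ± 0.21), a fatty acid binding protein of glia, also belong to nerve, though the median over all tested probe sets of Prph was -0.46. The others were Ogn, Agtr2, the angiotensin receptor of embryonic mesenchyme (-6.03 ± 0.56), Gucy1a1, part of the guanylate cyclase that nitric oxide activates (-5.91 ± 0.36), Plcxd3 (-5.89 ± 0.32) and Slc26a7, an anion exchanger (-5.60 ± 0.22). Transmitter genes were among the neuron markers. Vip, a neuropeptide of pelvic parasympathetic neurons, lay at 3.76, 4.07 and 4.41 in UGE and 9.42, 8.68, 8.92, 8.81 and 9.17 in UGM (-4.90 ± 0.15, adjusted p = 2.54e-10), Ddc, the decarboxylase of monoamine synthesis, differed by -4.37 ± 0.11, Dbh, which makes noradrenaline, by -2.22 ± 0.14 and Th, the first enzyme of that route, by -1.29 ± 0.23. Chgb, a granin of secretory granules (-4.92 ± 0.19), and Insm1 (-3.31 ± 0.17), a factor of neuroendocrine cells and neuroblasts, stood among the 6 of 10 neuroendocrine markers that were higher in UGM (median -3.32), with 0 higher in UGE.

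Growth factors of these nerves and their receptors differed as well. Of 14 neurotrophin and GDNF family genes 7 were higher in UGM and 2 in UGE (median -1.05). Ntf5, a ligand of Ntrk2, lay at 9.68, 9.92 and 10.02 in UGE and 7.95, 8.20, 8.05, 8.34 and 8.46 in UGM (1.67 ± 0.11, adjusted p = 1.24e-07). Nrtn, the ligand of Gfra2, lay at 8.85, 9.36, 9.23 and 9.09 in UGE replicates 1, 4, 5 and 6, 10.09 and 10.07 in replicates 2 and 3 and 8.21, 8.27, 8.21, 8.24 and 8.72 in UGM (1.12 ± 0.23, adjusted p = 0.00191). Its call ended without UGE replicate 2 (0.99) or 3 (0.99), or both (0.80 ± 0.14), which left 1 member higher in UGE. On the other side Ntrk2 lay at 8.13, 7.56, 7.58 and 7.48 in UGE replicates 1, 4, 5 and 6, 9.19 and 9.22 in replicates 2 and 3 and 11.66, 11.74, 11.64, 11.85 and 11.83 in UGM (-3.55 ± 0.33, adjusted p = 3.01e-06). Ntrk3 (-3.40 ± 0.46), Gfra2 (-3.11 ± 0.34), the GDNF receptor Ret (-1.99 ± 0.15), Gdnf (-1.82 ± 0.15) and the low affinity receptor Ngfr (-2.93 ± 0.18) were higher in UGM, though the median over all tested probe sets of Ngfr was 0.07.

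Markers of nerve sheath, vessels, smooth muscle and macrophages were higher in UGM for most of their tested members. Of 17 Schwann and neural crest markers (median -1.07) 9 were higher in UGM, among them Sox10, the factor that defines these cells (-2.26 ± 0.12, or -0.58 as the median over its probe sets), and Ednrb, an endothelin receptor (-5.47 ± 0.17), and 2 in UGE, Erbb3 and Mbp, a myelin protein (2.27 ± 0.09). Mbp was read from the brightest of 8 tested probe sets, of which 2 were called higher in UGE and 5 higher in UGM, with a median over all 8 of -1.15. The summed level of the Schwann list was 12.52 to 12.79 in UGE and 13.00 to 13.36 in UGM. Of 30 endothelial markers (median -2.21) 24 were higher in UGM and 1 in UGE, Pdpn (1.10 ± 0.10), a protein of lymphatic vessels that basal epithelia also make. Cdh5, the cadherin of endothelium, lay at 4.58, 5.05, 4.88 and 5.15 in UGE replicates 1, 4, 5 and 6, 6.09 and 5.74 in replicates 2 and 3 and 8.85, 8.67, 7.98, 8.46 and 8.75 in UGM (-3.29 ± 0.26, adjusted p = 7.16e-07), and Kdr, the VEGF receptor, differed by -2.93 ± 0.25. The endothelial sum was 11.68 to 11.78 in UGE replicates 1, 4, 5 and 6, 12.58 and 12.51 in replicates 2 and 3 and 13.45 to 13.81 in UGM.

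Smooth muscle and pericyte markers were higher in UGM for 17 of 25 tested (median -2.75), and 1, Notch3, in UGE, or 0 without UGE replicate 2 or 3 or UGM replicate 2. Myh11, the smooth muscle myosin, lay at 5.15, 5.48 and 5.64 in UGE and 10.56, 10.50, 10.38, 10.34 and 10.21 in UGM (-4.95 ± 0.11, adjusted p = 3.63e-11). Acta2 lay at 9.32, 7.24, 7.19 and 7.40 in UGE replicates 1, 4, 5 and 6, 10.48 and 10.34 in replicates 2 and 3 and 13.69, 13.88, 13.73, 13.79 and 13.75 in UGM (-5.11 ± 0.62, adjusted p = 3.36e-05), and Actg2 differed by -5.37 ± 0.45. For Acta2 the higher arrays of UGE were thus replicates 1, 2 and 3, and for Myh11 no UGE array stood out. The summed level was 13.00 to 13.65 in UGE and 15.60 to 15.74 in UGM. Of 24 skeletal muscle markers (median -0.44) 6 were higher in UGM, among them Actc1, the cardiac actin of embryonic muscle (-3.83 ± 0.49), which lay at 11.41 in UGM replicate 5 and lower in the other UGM arrays. Myod1, which defines muscle precursors, lay at 5.26 to 5.85 in UGE and 5.88 to 7.12 in UGM (-0.92 ± 0.22, not called), and the sum of the list was 9.81 to 10.45 in UGE and 11.50 to 12.67 in UGM. Macrophage markers were higher in UGM for 14 of 21 tested (median -1.18). Csf1r, the receptor on which macrophages depend, lay at 7.99 to 9.71 in UGE and 10.53, 10.80, 10.53, 10.66 and 10.95 in UGM (-1.81 ± 0.28, adjusted p = 2.68e-04), and Lyz2 differed by -1.91 ± 0.23, with list sums of 11.18 to 11.83 in UGE and 12.73 to 13.22 in UGM. Of 11 erythroid markers (median -0.54) 4 were higher in UGM: Alas2, of haem synthesis (-2.61 ± 0.45), Hba-x (-2.24 ± 0.35), Hbb-bh1 (-1.30 ± 0.11) and Hbb-y (-4.89 ± 1.15), embryonic globins whose probe sets may also read related globins. Hbb-y lay at 8.42, 8.12, 6.14 and 5.55 in UGE replicates 1, 4, 5 and 6, 12.27 and 12.25 in replicates 2 and 3 and 13.30 to 13.88 in UGM, and its call ended without any array other than UGE replicate 2, 3 or 6 (adjusted p of 0.011 to 0.0134). The erythroid sum was 9.06 to 9.67 in UGE replicates 1, 4, 5 and 6, 12.51 and 12.48 in replicates 2 and 3 and 13.51 to 14.02 in UGM. The melanocyte markers Dct (-0.10 ± 0.34) and Tyr (-0.15 ± 0.07) were not called, nor was any other of the 8 (median 0.02). The part of these cell types in the differences of single genes was not tested.

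Of 43 cell cycle genes 37 were not called (median -0.20), a share near that of all genes (14447 of 17360). Called higher in UGE were 11.6% and higher in UGM 2.33%, against 6.75% and 10.0% of all genes. Cdkn2b (3.24 ± 0.15) and Cdkn1a (2.38 ± 0.22), inhibitors of cyclin-dependent kinases, the Myc relatives Mycl (2.59 ± 0.25) and Mycn (1.12 ± 0.09), and Tyms, of thymidylate synthesis (1.12 ± 0.27), were higher in UGE. On the median over all tested probe sets Mycl (0.19), Mycn (0.23) and Tyms (0.42) were not called. The call of Tyms ended without UGE replicate 1, 4 or 5 or UGM replicate 2, 4 or 5 (differences of 0.96 to 1.18). Cdkn2c, an inhibitor of Cdk4 and Cdk6 (-1.21 ± 0.12), was the member higher in UGM. There were 4 in UGM without UGE replicates 2 and 3, and 2 or 3 without UGE replicate 1, 2 or 3 or UGM replicate 5. Ccnd1, cyclin D1, was among those gained: it lay at 9.26, 9.87, 9.50 and 9.70 in UGE replicates 1, 4, 5 and 6, 11.28 and 11.35 in replicates 2 and 3 and 11.34, 11.15, 11.65, 11.45 and 11.78 in UGM (-1.32 ± 0.38, and -1.89 ± 0.15 without them). Top2a, a topoisomerase of dividing cells, lay at 11.11 to 12.06 in UGE and 12.13 to 12.45 in UGM (-0.69 ± 0.16, not called).

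Immediate early and stress genes, which tissue handling is known to induce, were higher in UGE for 11 of 24 tested (median 0.80). Hspb1, a small heat shock protein, lay at 12.53, 12.71 and 12.88 in UGE and 8.48, 9.26, 8.68, 8.50 and 9.46 in UGM (3.83 ± 0.18, adjusted p = 6.12e-09). Fosl2 (2.61 ± 0.07), an AP-1 subunit, and Hspa1b (2.38 ± 0.17), an inducible Hsp70, were higher in UGE as well. Fos lay at 10.14 to 10.98 in UGE and 8.58, 10.28, 7.30, 8.58 and 8.35 in UGM (1.87 ± 0.41, adjusted p = 0.00306), with UGM replicate 2 inside the UGE range. Egr1 (0.83 ± 0.12) and Jun (0.06 ± 0.11) were not called. Dusp1, a phosphatase of the same response (-1.04 ± 0.14), was the 1 member higher in UGM, and its call ended without UGE replicate 4 (-0.93) or UGM replicate 5 (-0.98). Both layers had the same trypsin step, and the labels do not give the time each spent in it. In fatty acid and sterol synthesis 4 of 26 genes were higher in UGE (median -0.07): Acsl5 (1.97 ± 0.09), an acyl-CoA synthetase, Srebf1 (1.53 ± 0.14), the lipogenic regulator, and the elongases Elovl7 (1.76 ± 0.13) and Elovl1 (1.01 ± 0.15). The call of Elovl1 ended without UGE replicate 2 (0.95), UGE replicate 3 (0.94), UGM replicate 1 (0.95) or UGM replicate 2 (0.99). Fads3 (-2.45 ± 0.24) and Fads1 (-1.41 ± 0.23), desaturases, were higher in UGM, or 7.69% of the list against 10.0% of all genes. Without UGE replicate 2 or 3 there were 4 in UGM, Scd1, a stearoyl desaturase, being 1 of them without both (-1.76 ± 0.49 with them and -2.52 ± 0.17 without). Fasn, fatty acid synthase, lay at 11.51 to 12.38 in UGE and 11.48 to 11.76 in UGM (0.30 ± 0.16, not called).

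UGE replicates 2 and 3 differed from the other 4 UGE arrays in more than mesenchymal transcripts. As a description with no test, 222 genes lay at least 1 log2 unit higher in both than in each of UGE replicates 1, 4, 5 and 6, and 622 lay at least 1 lower in both. For any other pair of UGE arrays the first count was 0 and the second at most 2. Of the 222 genes 180 were called higher in UGM and 3 higher in UGE, and 13 also lay at least 1 log2 unit above every UGM array. Those 13, named after their values were seen, were Wnt7a, Emx2, AI467606, C1qtnf12, Lhx1, Dlx5, Wnt9b, Cdh16, Cda, Map3k21, Clu, Htra1 and Rasl10a. Several of them are known from the mesonephric and Mullerian ducts, which join the urogenital sinus. Emx2, a homeobox gene of both ducts, lay at 7.55, 7.36, 7.17 and 7.79 in UGE replicates 1, 4, 5 and 6, 9.49 and 9.73 in replicates 2 and 3 and 7.06, 7.60, 6.06, 6.23 and 6.83 in UGM (1.43 ± 0.50, not called). Cdh16, a cadherin of kidney and mesonephric duct, lay at 10.28, 10.20, 10.04 and 10.66 in UGE replicates 1, 4, 5 and 6, 11.77 and 11.89 in replicates 2 and 3 and 8.92, 9.37, 8.07, 8.19 and 9.12 in UGM (2.07 ± 0.38, adjusted p = 0.00104). Every UGE array was above every UGM array for Cdh16, and replicates 2 and 3 were the highest. Lhx1, a homeobox gene of the mesonephric duct, lay at 5.31, 5.08, 5.12 and 5.34 in UGE replicates 1, 4, 5 and 6, 6.81 and 7.21 in replicates 2 and 3 and 4.54 to 4.77 in UGM, and Wnt9b, a ligand of that duct, at 7.16, 6.60, 6.62 and 6.91 in UGE replicates 1, 4, 5 and 6, 8.43 and 8.77 in replicates 2 and 3 and 6.14 to 7.19 in UGM. For the duct factor Pax8 the values were 4.71, 4.84, 4.75 and 5.14 in UGE replicates 1, 4, 5 and 6, 5.89 and 6.30 in replicates 2 and 3 and 4.46 to 4.98 in UGM. Dlx5, a homeobox gene known from skeleton and genital tubercle, lay at 6.47, 5.88, 6.40 and 6.61 in UGE replicates 1, 4, 5 and 6, 8.54 and 8.41 in replicates 2 and 3 and 6.37 to 7.06 in UGM. None of these 4 genes was called, and UGE replicates 2 and 3 were above all other arrays for each. The 13 duct markers tested had a median level of 8.43 and 8.41 in UGE replicates 2 and 3, 6.60 to 7.71 in the other UGE arrays and 6.14 to 7.60 in UGM. That list was chosen with earlier results known and includes Wnt7a, Emx2, Lhx1, Wnt9b, Cdh16 and Dlx5. Its median therefore restates the values of these genes and is not separate evidence. Of the list (median difference 0.66) Gata3 and Cdh16 were called higher in UGE and Ret in UGM, and without UGE replicates 2 and 3 2 were higher in UGM. With all 11 arrays the shares higher in UGE and in UGM were 15.4% and 7.69%, against 6.75% and 10.0% of all genes. The part of duct tissue in these arrays was not tested.

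**Figure D5:**
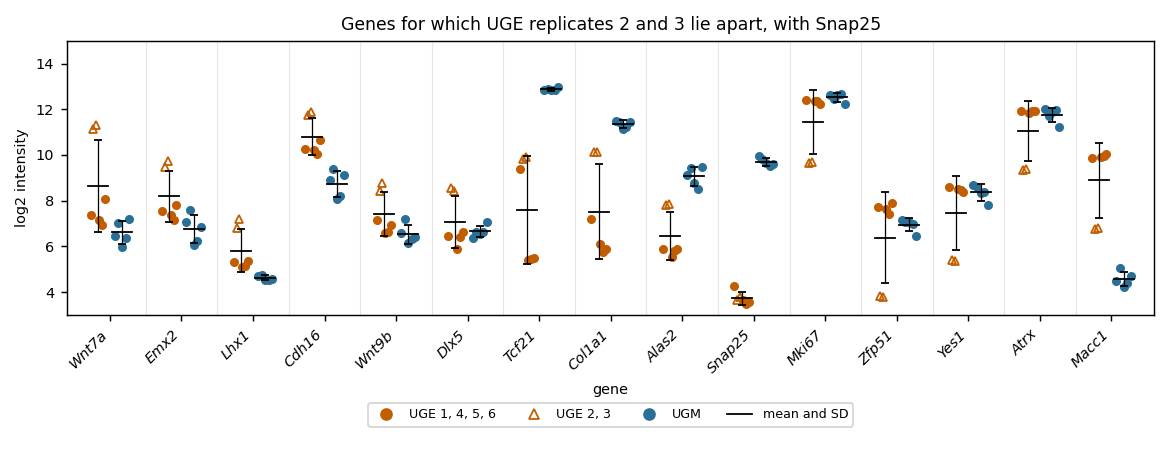
Log2 intensity of genes for which UGE replicates 2 and 3 (open triangles) lie apart from UGE replicates 1, 4, 5 and 6 (orange discs), with UGM in blue, mean and SD of each group, and Snap25 as a gene for which they do not. For Tcf21 the disc of UGE replicate 1 lies near the triangles, apart from replicates 4, 5 and 6. The triangles are highest of all arrays for Wnt7a, Emx2, Lhx1, Cdh16, Wnt9b and Dlx5, and lowest of all for Mki67, Zfp51, Yes1 and Atrx.

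Of the 622 genes that lay lower in UGE replicates 2 and 3, 567 were not called between UGE and UGM, 30 were called higher in UGE and 25 higher in UGM, and 557 lay in both arrays below every UGM array as well. Over all genes 14447 of 17360 were not called. The 622 were chosen by a split among the UGE arrays, which widens the UGE spread and makes a call less likely. A missing call here does not show equal levels in the layers. Zfp51, Atrx, Yes1 and Macc1 were named after their values were seen. Zfp51, a zinc finger gene, lay at 7.72, 7.62, 7.40 and 7.88 in UGE replicates 1, 4, 5 and 6, 3.81 and 3.79 in replicates 2 and 3 and 7.15, 7.08, 7.09, 6.97 and 6.44 in UGM. Genes named Zfp with a number were 68 of the 622, 1 of the 222 and 328 of the 17360 tested. Mki67, the proliferation antigen, lay at 12.42, 12.38, 12.38 and 12.24 in UGE replicates 1, 4, 5 and 6, 9.64 and 9.67 in replicates 2 and 3 and 12.61, 12.47, 12.64, 12.67 and 12.21 in UGM (-1.06 ± 0.56, -0.16 without those arrays, neither called), while the median of the cell cycle list was 10.37 and 10.41 in these arrays and 10.18 to 10.39 in the other UGE arrays. That median does not show that genes of cell division were unchanged. Among the 622, Cenpf (8.14 and 8.40, against 10.36 to 10.65 in the other UGE arrays) and Bub1 (7.99 and 7.72, against 9.43 to 9.53) were lower too. Ccnd1 was higher (11.28 and 11.35, against 9.26 to 9.87). Atrx, a chromatin remodeller, lay at 11.93, 11.82, 11.92 and 11.91 in UGE replicates 1, 4, 5 and 6, 9.33 and 9.37 in replicates 2 and 3 and 12.01, 11.68, 11.89, 11.96 and 11.24 in UGM. Yes1, a Src family kinase, lay at 8.59, 8.52, 8.45 and 8.39 in UGE replicates 1, 4, 5 and 6, 5.38 and 5.35 in replicates 2 and 3 and 8.69, 8.61, 8.33, 8.37 and 7.79 in UGM. UGE replicates 2 and 3 were the lowest of all 11 arrays for Zfp51, Mki67, Atrx and Yes1. Macc1, a regulator of Met transcription, was higher in UGE in all arrays, at 9.88, 9.91, 9.95 and 10.05 in UGE replicates 1, 4, 5 and 6, 6.74 and 6.80 in replicates 2 and 3 and 4.46, 5.05, 4.24, 4.39 and 4.70 in UGM (4.32 ± 0.66, adjusted p = 2.23e-04). Array medians (6.32 and 6.31 in these arrays, 6.29 to 6.32 in the other UGE arrays) and the 3′ minus 5′ differences of Gapdh (2.52 and 2.56, against 2.16 to 2.79) and Actb (2.39 and 2.34, against 2.08 to 2.37) did not set replicates 2 and 3 apart. Over all tested probe sets UGE replicates 2 and 3 correlated with each other at r = 0.994, as highly as any pair of UGE arrays (0.954 to 0.994), and UGE arrays without them at 0.986 to 0.994.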

How the data were processed

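UGE and UGM of the urogenital sinus were read on Affymetrix MOE430 2.0 arrays after two-cycle biotin labelling. The authors deposited 1 linear intensity per probe set and array, already normalized between arrays. The submitters' processing notes name GCOS 1.4, and the study's methods name MAS5 for detection calls and PLIER for levels. Neither source says which of these made the table.

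Of the 45101 probe sets 64 are controls and entered no test. A probe set was tested if any of the 19 samples exceeded 20, which 41549 did. Gene names came from GEO's platform annotation: 34945 probe sets carry 1 symbol, 932 several and 9160 none here. For 17360 of 18193 genes a tested probe set, the brightest by mean log2 over the 19 samples, stood for the gene. limma 3.58.1 in R 4.3.3 was fitted to the log2 intensities of the 11 arrays with no covariate, and p-values were adjusted over all tested probe sets. The precision rests on 6 and 5 pools, whose spread may be partly technical. A simulation with known changes was used to test the script.

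The text names the 12 largest non-overlapping changes in each direction, up to 4 called members of each of 39 lists in each direction, and some of the members marked as defining. The defining members left out include called genes and genes that were not called, such as Adgre1, Chat, Aldh1a3 and Ccnd2. The lists and the comparison were chosen with earlier results of these data known. Members that complete a small count, such as Wnt9a and Mycn, and the genes of UGE replicates 2 and 3 were named after their values were seen.

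Promoter windows came from RefSeq on GRCm38.p6. The alternatives tried were the methods' t-test, quantile normalization, an offset, other filters and thresholds, limma's treat and trend options, a fit of all 4 tissues, the replicate number as a block, other choices of probe set, and arrays left out. Leaving out each remaining array after UGE replicates 2 and 3 was added after seeing the data.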

Additional observations from a re-analysis of the deposited data

Results flagged for a closer look

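In 568 groups of arrays, of 245 genes and 39 lists, 30 had 1 array whose gap to the nearest other took most of the group's range. Chance flags about 1 in 20 groups, so 30 of 568 is near that share. UGM replicate 2 stood apart 7 times. It was the highest UGM array for Krt4 (8.84), Krt5 (8.78), Krt15 (9.85), Clca1 (6.34), Clca3a2 (4.98) and Upk1b (8.62), all higher in UGE, and the lowest for Esr1 (9.35).

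UGM replicate 5 stood apart 8 times. It was highest of UGM for Dbh (10.81), Insm1 (8.12), Ephb6 (8.34), Hspa1b (9.90), Nrtn (8.72) and the median of the skeletal muscle markers (6.28), and lowest for Nr3c1 (8.43) and Zfp51 (6.44).

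UGE replicate 1 was the highest UGE array for Clca1 (12.53), Epha3 (9.16), Jag2 (9.88) and Upk1b (13.51), and the lowest for Lyz2 (5.50) and Tfap2c (10.68). UGE replicate 6 was highest for Hspa1b (12.46) and Mmp7 (9.78) and lowest for Epha1 (8.27). Of the other UGM arrays, replicate 1 was highest for Col3a1 (14.59) and Dcn (14.06), replicate 3 lowest for Rspo3 (11.06) and the median of the interstitial matrix genes (11.45), and replicate 4 lowest for Lgr5 (7.35) and Tgfbi (12.45). UGE replicates 2 and 3 lay together, so neither stood apart by this measure.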

How the results depend on the processing

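Over all probe sets of UGE versus UGM 5506 were called, 2431 higher in UGE and 3075 higher in UGM. The count was 3759 with 50 added before log2, 4589 with only probe sets whose median was over 50, and 5735 at an adjusted p under 0.05, and the other fits with all 11 arrays except treat lay between these. limma's treat, which tests for more than 2-fold, called 2524 (1017 and 1507). Counted per gene, the number was 2913, or 2954 with the probe set of the highest mean over the 11 samples. Leaving out 1 array gave 5256 (without UGM replicate 2) to 5705 (without UGE replicate 2). For UGE versus UGM without UGE replicates 2 and 3 there were 6226, with 5981 to 6367 when 1 further array was left out and 4207 to 6272 under the other alternatives.

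With the replicate number as a block, 5264 probe sets of UGE versus UGM were called, or 6272 for UGE versus UGM without UGE replicates 2 and 3. The labels do not say what a number shares, and the deviations of same-numbered UGE and UGM arrays from their group means correlated at 0.65, 0.01, -0.12, 0.14 and -0.41, so the numbers were not taken to pair the samples. UGE replicate 1 correlated best with the UGM array of its own number, and UGE replicates 2 to 5 with another.

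Of the 213 called genes named in the text, the methods' t-test left 7 uncalled, the block 5, quantile normalization 3, 50 added before log2 14, treat 51 and leaving out 1 array 1 to 5. Without UGE replicates 2 and 3, 4 were uncalled, and without UGE replicates 5 and 6, which had lower BioB levels than the other UGE arrays, 7 were, among them Gli3 (-0.99), Col1a1 (adjusted p = 0.0134), Pdgfrb (0.0135), Tgfbi (0.0136) and Fos (0.0169). The methods' t-test gave adjusted p-values of 0.0118 for Col1a1, 0.0122 for Fos, 0.0132 for Pdgfrb and 0.0106 for Tgfbi, and the block 0.0111, 0.0122 and 0.0151 for Col1a1, Fos and Pdgfrb. Taking a gene's median over all its tested probe sets ended the call of 30 of the 213, among them Acta2 (-0.15), Gfra2 (-0.32), Hand2 (-0.56), Ptch1 (-0.45), Prph (-0.46), Sox10 (-0.58), Ror1 (-0.26), Notch4 (-0.05) and Epha1 (0.54). The direction was reversed for Mbp (-1.15) and Ngfr (0.0745). The cause was not tested. Low intensities limit what can be read: with 50 added before log2 the difference of Fgf7 was -0.67, that of Itgb6 0.90 and that of Pitx1 -0.86.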
